A study of Mus musculus with 3 samples.

Results

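The genes of the myelin sheath were followed in neural retina of Rp1 knockout mice (Rp1-/-), measured on 3 one-colour Affymetrix arrays. Members were every probe set whose platform annotation gives exactly 1 gene symbol, where that symbol is Mbp, Mag, Mobp, Mog, Cnp, Mal, Myrf or Ugt8a. This gave 13 probe sets for 8 genes, out of 10833 probe sets for 8251 genes. Per the labels the mice had a mixed 129/SvEv and C57BL/6 background and were at postnatal day 21. Each array measured the pooled neural retinas of 3 to 4 animals, taken between 1 and 2 pm. The 3 pools form 1 group, with no wild-type group analysed here, so no value below is a contrast between conditions and no test was made. In such tissue RNA, fewer cells of a type and less RNA per cell cannot be told apart.

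Myelin is the membrane that oligodendrocytes wrap around axons in the brain, spinal cord and optic nerve. In the mouse, axons of retinal ganglion cells run unmyelinated through the retina and acquire myelin only in the optic nerve behind the eye, so oligodendrocytes are not a normal cell type of the mouse retina. Myelin is compacted by small basic proteins, carries adhesion and surface proteins on its inner and outer faces, is rich in galactolipids, and is built under transcription factors that include Myrf and Sox10. Some of these genes have transcripts outside myelin, the best known being the golli transcripts of Mbp, which are made in neurons and immune cells.

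Signals are given after scaling each array to a common trimmed mean. To count as above the limit, a probe set had to be brighter than the 95th percentile of 19 non-mouse control probe sets on the same array (15 for bacterial and 4 for yeast transcripts, none of them a spiked hybridization control). For replicates 1, 2 and 3 this limit came to 160.3, 80.7 and 107.1. The controls ran from 11.5 to 235 in replicate 1 with a median of 44.5, from 3.31 to 96.2 in replicate 2 with a median of 19.0, and from 8.80 to 114 in replicate 3 with a median of 21.1. Of the 19 controls, 14 had their highest signal in replicate 1, which makes that array the one with the highest dim signals.

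Of the 13 myelin probe sets, 5 were above the limit on all 3 arrays, 1 was above it on 1 array and 7 were above it on none. Among all probe sets with 1 symbol, 56.3% were above the limit on all 3 arrays and 19.2% on none. By gene, 4 of the 8 (Mbp, Mag, Mal and Myrf) had at least 1 probe set above the limit on all 3 arrays, against 62.8% of all genes. The median signal of the 13 probe sets was 85.0, 37.0 and 44.5 in replicates 1, 2 and 3, below the limit of each array, while the median over all probe sets was 314, 238 and 267. With the highest of the 19 controls as limit, 3 of the 13 remained above it on all 3 arrays, namely both of Mbp and that of Myrf, beside 51.0% of all probe sets.

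**Figure D1:**
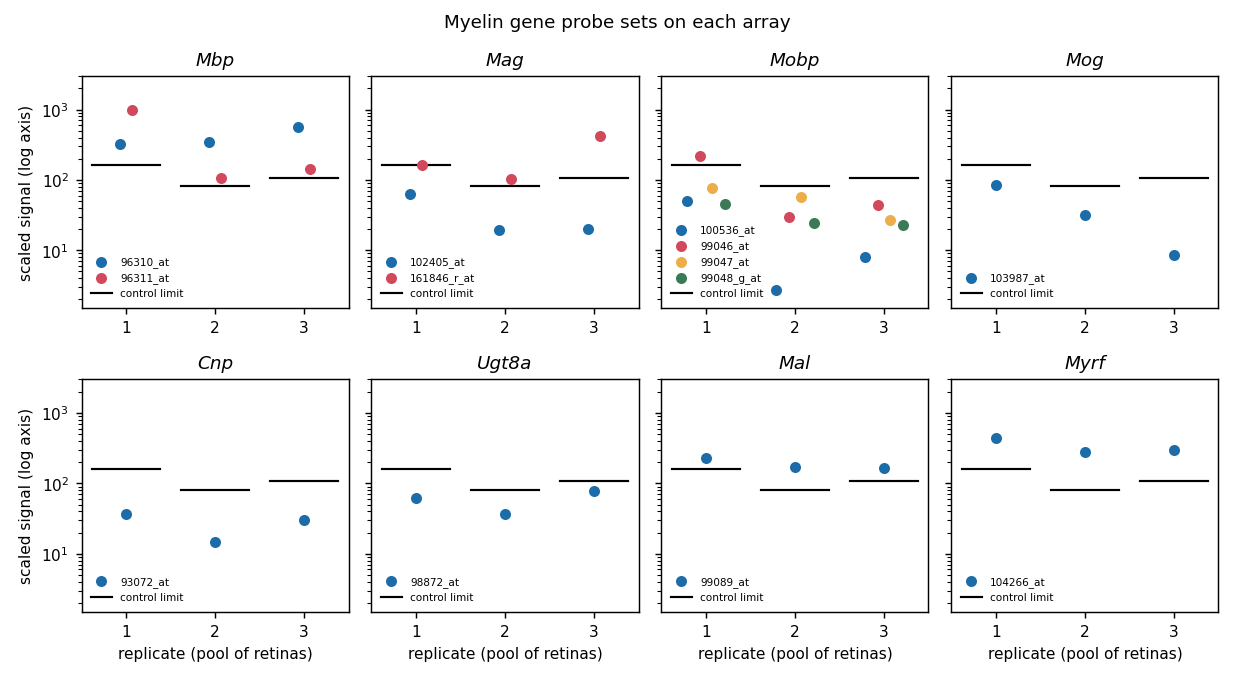
Scaled signal (log axis) of each probe set of the 8 myelin genes in the 3 pools, 1 point per array and 1 colour per probe set, with black bars for the control limit of each array (160.3, 80.7 and 107.1). All points of Mog, Cnp and Ugt8a lie under the bars, those of Mal and Myrf lie above them, and the probe sets of Mbp, Mag and Mobp differ from each other.

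The promoters of 5 of these genes are shown because Myrf, a regulator of myelin genes, was itself above the limit on all arrays. Mog, Mobp and Cnp were not, and whether Myrf acts on any of these genes in this tissue was not tested. Each window holds the 250 bases before the annotated transcript start in RefSeq, build GRCm38.p6, printed from 5′ to 3′ in the direction of transcription. Capitals mark matches, on either strand, to the MYRF motif (CTGGCAC or CTGGTAC) and to the SOX core ACAAAG. Where a gene has several windows the first listed was taken.
Mag, chr7:30914864-30915113, minus strand: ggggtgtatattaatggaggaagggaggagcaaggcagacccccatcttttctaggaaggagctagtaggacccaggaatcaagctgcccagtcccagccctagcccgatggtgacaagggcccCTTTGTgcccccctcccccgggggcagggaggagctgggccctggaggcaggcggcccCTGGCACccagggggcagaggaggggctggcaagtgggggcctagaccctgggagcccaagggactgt
Mog, chr17:37023399-37023648, minus strand: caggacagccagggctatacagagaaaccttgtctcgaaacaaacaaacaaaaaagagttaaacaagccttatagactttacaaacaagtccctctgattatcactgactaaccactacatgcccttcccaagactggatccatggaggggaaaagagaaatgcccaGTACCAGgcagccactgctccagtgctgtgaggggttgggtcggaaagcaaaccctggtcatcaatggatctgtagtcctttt
Cnp, chr11:100574689-100574938, plus strand: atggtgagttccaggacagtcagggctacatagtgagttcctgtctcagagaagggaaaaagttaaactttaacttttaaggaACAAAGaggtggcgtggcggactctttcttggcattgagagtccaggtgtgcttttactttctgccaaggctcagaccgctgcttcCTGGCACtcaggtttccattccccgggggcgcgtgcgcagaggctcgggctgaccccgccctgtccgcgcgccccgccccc
Mobp, chr9:120149492-120149741, plus strand: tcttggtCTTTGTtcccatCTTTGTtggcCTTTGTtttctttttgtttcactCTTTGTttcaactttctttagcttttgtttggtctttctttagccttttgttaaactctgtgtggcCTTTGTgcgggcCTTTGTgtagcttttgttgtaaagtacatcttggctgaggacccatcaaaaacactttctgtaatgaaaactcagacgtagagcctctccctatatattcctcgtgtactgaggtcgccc
Mal, chr2:127656696-127656945, minus strand: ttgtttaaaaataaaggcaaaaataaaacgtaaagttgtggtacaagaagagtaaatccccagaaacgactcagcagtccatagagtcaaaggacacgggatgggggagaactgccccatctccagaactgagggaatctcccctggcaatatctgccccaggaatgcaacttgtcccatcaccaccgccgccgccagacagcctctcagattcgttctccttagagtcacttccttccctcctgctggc

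The MYRF motif was found in 3 of the 6 myelin genes whose window was read, once each. No window of Mbp or Myrf was analysed here. In Mag the match began 68 bases before the start, in Cnp 81 bases before it, and in Mog, on the opposite strand, 83 bases before it. The same motif occurred in 5.86% of 27025 windows of the same length, 1 per gene. The SOX core was found once in Mag, once in Cnp and 6 times in Mobp, all on the opposite strand in Mobp. Of all windows 16.5% held this core at least once, and 1 window, that of Mobp, held it 6 times or more. Mal and Ugt8a had neither motif in this window. These letter matches describe sequence and are not evidence of binding.

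Mbp encodes myelin basic protein, which holds the cytoplasmic faces of compact myelin together. Its 2 probe sets gave unlike patterns. Probe set 96311_at reached 989.6 in replicate 1 but only 107 and 141 in replicates 2 and 3. The first pool thus stood 9.22-fold above the second and 7.0-fold above the third, while the latter lay close together. Against the array limits it reached 6.17 times the limit in replicate 1 but only 1.33 and 1.32 times in the other pools, so the latter lay close to it. If the limit is instead set at each array's own 40th percentile (193.8, 134.5 and 160.9), this probe set no longer passes it in replicates 2 and 3.

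Probe set 96310_at, also for Mbp, had signals of 322, 343 and 557 in replicates 1, 2 and 3, a mean of 407 ± 130 (SD, n = 3). It was lowest where the other was highest, and its highest signal, in replicate 3, was 1.73-fold its lowest. Its multiples of the limit were 2.01, 4.25 and 5.20. It lay above all 19 controls on every array. Which Mbp transcripts each probe set detects was not analysed here.

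The spread of 96311_at was wide for this table. Of the 6094 probe sets above the limit on all 3 arrays, 14 (0.230%) had a ratio of highest to lowest signal at least as large, and 10 of these 14 were highest in replicate 1. Among the 5 myelin probe sets above the limit on all 3 arrays, 2 had a range of 2-fold or more, which 30.2% of all such probe sets had. They were 96311_at and the Mag probe set 161846_r_at. Without replicate 1 the count was 1 (Mag), and without replicate 3 it was 1 (Mbp). Under scaling to equal medians or by quantiles, 96310_at joined them, with ranges of 2.05-fold and 2.02-fold.

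Mag encodes myelin-associated glycoprotein, an adhesion protein of the innermost myelin membrane that faces the axon. The plain probe set 102405_at had signals of 63.8, 19.7 and 19.9 in replicates 1, 2 and 3, at or under 0.398 times the limit on each array. At least 7 of the 19 controls were as high or higher on every array. The second probe set, 161846_r_at, gave 164, 101 and 418, so that replicate 3 was 4.12-fold above replicate 2 and 2.55-fold above replicate 1. In replicate 1 this signal was 1.02 times the limit, and it dropped under it when the limit was taken from the bacterial controls alone (177.0). The suffix _r marks probe sets for which the array's design rules were relaxed. The probe sets of Mag therefore disagreed on whether the gene was above the limit, and also on which pool was highest. Both were designed on the same source sequence and are not independent.

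Mobp, the gene of a small basic protein of compact myelin, had 4 probe sets, none of them above the limit on all 3 arrays. Probe set 99046_at gave 218 in replicate 1, above the limit, and 29.6 and 44.5 in replicates 2 and 3, below it. Its level in replicate 1 was therefore at least 2.71-fold that of replicate 2 and at least 2.04-fold that of replicate 3, taking the limit as the level of the dim arrays. The other probe sets were below the limit throughout, with 77.2, 56.7 and 26.7 for 99047_at, 45.4, 24.5 and 22.6 for 99048_g_at, and 50.9, 2.70 and 8.0 for 100536_at. In replicates 2 and 3 the last of these lay below all 19 controls. All 4 had their highest signal in replicate 1, and 99047_at and 99048_g_at were designed on the same source sequence and are not independent.

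Of the members with several probe sets (Mbp, Mag and Mobp), only Mobp had all of them highest on the same array. Over the 2073 genes of the table with several probe sets, 33.3% did so.

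Mog encodes myelin oligodendrocyte glycoprotein, a surface protein of the outermost myelin layer and of mature oligodendrocytes. Its probe set gave 85.0, 31.7 and 8.70 in replicates 1, 2 and 3, all below the limit. In replicate 3 it lay below every control. Cnp, the gene of a cyclic nucleotide phosphodiesterase of non-compact myelin and an early marker of the lineage, gave 37.1, 14.5 and 30.0. Between 8 and 11 of the 19 controls lay below it, so that it sat near the middle of the controls on every array. Ugt8a encodes the galactosyltransferase that makes the myelin lipid galactocerebroside, and its probe set gave 62.6, 37.0 and 78.5, also below the limit on all arrays. It came nearest to the limit in replicate 3, at 0.733 times.

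Mal and Myrf were above the limit in every pool and ranged less than 2-fold. Mal encodes a proteolipid of membrane sorting, found in myelinating glia and in polarized epithelia. Its signal was 227, 173 and 168 in replicates 1, 2 and 3 (mean 190 ± 32.4, SD, n = 3), a range of 1.35-fold. The multiples of the limit were 1.41, 2.15 and 1.57, and in replicate 1 the highest control (235) exceeded it. Myrf encodes the membrane-bound transcription factor that switches on myelin genes in oligodendrocytes. Its signal was 437, 276 and 301 (mean 338 ± 86.7, SD, n = 3), a range of 1.58-fold, and 2.72, 3.42 and 2.81 times the limit. Myrf exceeded all 19 controls on every array.

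**Figure D2:**
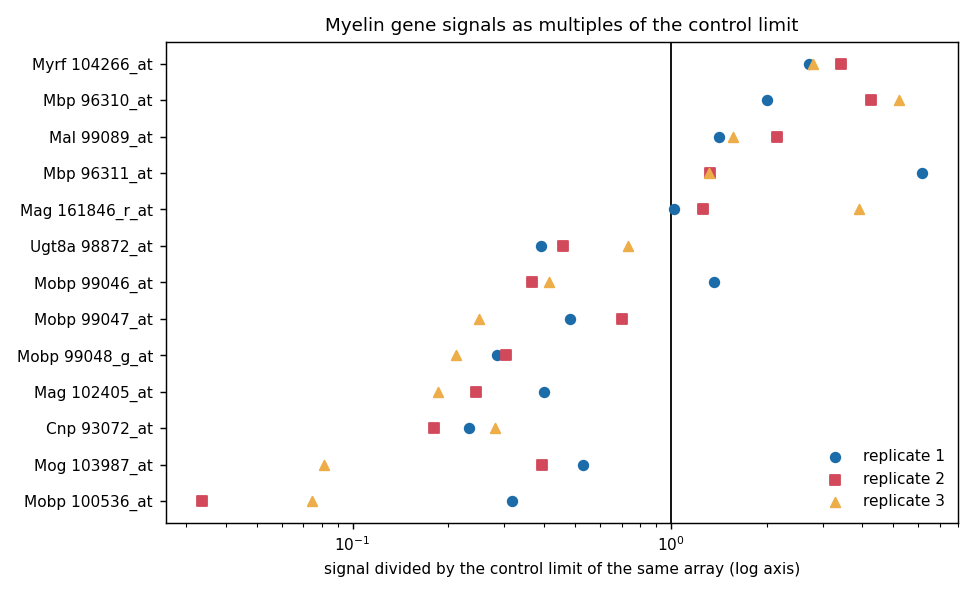
Signal of each of the 13 probe sets divided by the control limit of the same array (log axis), 1 symbol per replicate, ordered by the lowest of the 3 values, with the vertical line at the limit. Myrf and 96310_at of Mbp sit at 2.01 times the limit or more on all arrays, whereas 96311_at reaches 6.17 in replicate 1 and 1.33 or less in the others.

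Most myelin probe sets were highest in replicate 1, as were the controls. This held for 10 of the 13 probe sets, against 47.4% of all probe sets, with the other 3 (96310_at, 161846_r_at and Ugt8a) highest in replicate 3. Of the 7 above the limit on no array 6 were highest in replicate 1, against 67.9% of all probe sets of that kind. The count depended on the scaling. Under equal medians it was 8 of 13 against 33.9% of all probe sets, and after quantile normalization 6 of 13 against 38.5%. Both moved the median log2 signal of replicate 1 by -0.22, and that of replicate 2 by 0.23 and 0.22. For 96311_at the range was 6.75-fold and 7.65-fold under these scalings.

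Markers of other cells and tissues differed between the pools as well. The counts below stand beside 56.3% of all probe sets above the limit on all 3 arrays and 47.4% highest in replicate 1. Photoreceptor markers, which define the labelled tissue, had 5 of 5 probe sets above the limit on all 3 arrays. Pigment cell markers, 8 probe sets of which 2 were above the limit on all 3 arrays, summed to 1575 in replicate 1, 12754 in replicate 2 and 8582 in replicate 3. Markers of stroma and vessel wall, 9 probe sets with 4 above the limit on all 3 arrays, summed to 3843, 6991 and 8654. Ganglion cell markers, 6 probe sets all above the limit, summed to 8726, 7174 and 6585, and 5 of the 6 were highest in replicate 1. Markers of retinal and optic nerve astrocytes, 7 probe sets with 6 above the limit on all 3 arrays, summed to 7788, 13257 and 11486. Aldoc carried that sum, with 5324, 10278 and 8455. Both Aqp4 probe sets and that of Pax2 were, like Aldoc, lowest in replicate 1 and highest in replicate 2. In contrast, 3 of the 7 (both of Gfap and that of S100b) were highest in replicate 1. Microglial markers, 6 probe sets with 5 above the limit on all 3 arrays, summed to 3657, 1607 and 2084. Of the 6, 3 were highest in replicate 1 and 3 in replicate 3. The Csf1r probe set 161832_r_at made up 1432, 248 and 223 of these sums, whereas 104354_at of the same gene gave 324, 262 and 354. Endothelial markers, 4 probe sets with 3 above the limit on all 3 arrays, summed to 2148, 1242 and 1666, and 4 of 4 were highest in replicate 1. Müller glia markers, 6 probe sets all above the limit, summed to 13941, 20219 and 18592, with 2 highest on each array. The Clu probe sets carried that order, with 1473, 3621 and 3642 at 161294_f_at and 3682, 9331 and 8369 at 95286_at. Rlbp1 was also lowest in replicate 1, whereas Vim and the Glul probe set 94852_at were highest there. The 3 blood probe sets, 1 of them above the limit on all 3 arrays, summed to 4272, 26180 and 7047. Hba-a1 carried that sum, with 4077, 25566 and 6661. Alas2 was also highest in replicate 2, whereas Slc4a1 was highest in replicate 3, with 113, 109 and 240. No marker was at 0, and the part of any of these in the myelin signals of replicate 1 was not tested.

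Other genes of oligodendrocytes and myelin were examined through a list of 34, of which 14 had a probe set of their own. Olig1 and Olig2 were among the 20 without one. Of the 20 probe sets of these 14 genes, 6 were above the limit on all 3 arrays, 8 on 1 or 2 arrays and 6 on none, again beside 56.3% and 19.2% of all probe sets. Of the 6, 5 belonged to genes known in many other cells, namely Car2, Qdpr, Sirt2, Cryab and Tubb4a, and the sixth was for Pdgfra. None of these 6 had a range of 2-fold or more, which 30.2% of all probe sets above the limit on all 3 arrays had.

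Among the defining markers of oligodendrocytes, only Cldn11 and Sox10 could be read, and 0 of their 4 probe sets were above the limit on all 3 arrays. Cldn11, the tight junction protein of central myelin, gave 62.0, 29.6 and 63.4 at one probe set, all below the limit, and 121, 17.7 and 147 at another, above it in replicate 3 alone. Sox10, a transcription factor of oligodendrocytes and Schwann cells, gave 835 in replicate 1 and 42.5 and 27.7 in replicates 2 and 3 at 100283_at. There the first pool exceeded the second by at least 10.4-fold and the third by at least 7.80-fold. The second Sox10 probe set, 102856_at, gave 107, below the limit, in replicate 1, and 272 and 535 in the other pools. Its level in the third pool was at least 3.34 times that in the first. Replicate 1 was thus highest at 100283_at and lowest at 102856_at, and the probe sets of Mbp likewise disagreed on replicate 1. At 100283_at replicates 2 and 3 were both below the limit, so their order cannot be read. The summed signal of the 4 marker probe sets was 1125, 362 and 774.

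Precursor markers gave a mixed picture. Pdgfra, the platelet-derived growth factor receptor of oligodendrocyte precursors, which retinal astrocytes and stromal cells also make, gave 389, 755 and 768 at 95079_at. At 160332_at it was 150 and 70.8 in replicates 1 and 2, below the limit, and 527 in replicate 3, and at 161202_r_at it was below the limit on all arrays. The homeobox gene Nkx2-2 of the early lineage gave 103, 48.9 and 42.0, all below the limit, and Nkx6-2, a homeobox gene of myelinating oligodendrocytes, exceeded it in replicate 2 alone, with 36.7, 92.5 and 30.9.

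Of the 10 probe sets for genes of this list known in other cells too, the 5 above the limit on all arrays ranged between 1.18-fold (Qdpr) and 1.48-fold (Car2) over the pools. Car2, a carbonic anhydrase of oligodendrocytes and of Müller glia, gave 6957, 10302 and 7745 in replicates 1, 2 and 3. Qdpr, a pteridine reductase, gave 2184 ± 195, the deacetylase gene Sirt2 gave 1288 ± 211 and the tubulin gene Tubb4a gave 3065 ± 483 (mean ± SD, n = 3). Cryab, a small heat shock protein that lens makes in quantity, gave 4704 ± 617 at 162308_f_at, but 339 in replicate 1 and 19.3 and 36.6, below the limit, in the other pools at 93279_at.

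None of the remaining genes of the list was above the limit on all 3 arrays. Apod, a lipid carrier of oligodendrocytes and fibroblasts, gave 144, 30.3 and 12.9, and the peptidase gene Klk6 gave 47.9, 6.41 and 8.40, both below the limit on all arrays. Evi2a was below it at one probe set and gave 199, 108 and 85.0 at the other, above it in replicates 1 and 2. Gjb1, a connexin of myelinating cells, gave 80.4, 21.9 and 187, above the limit in replicate 3 alone.

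**Figure D3:**
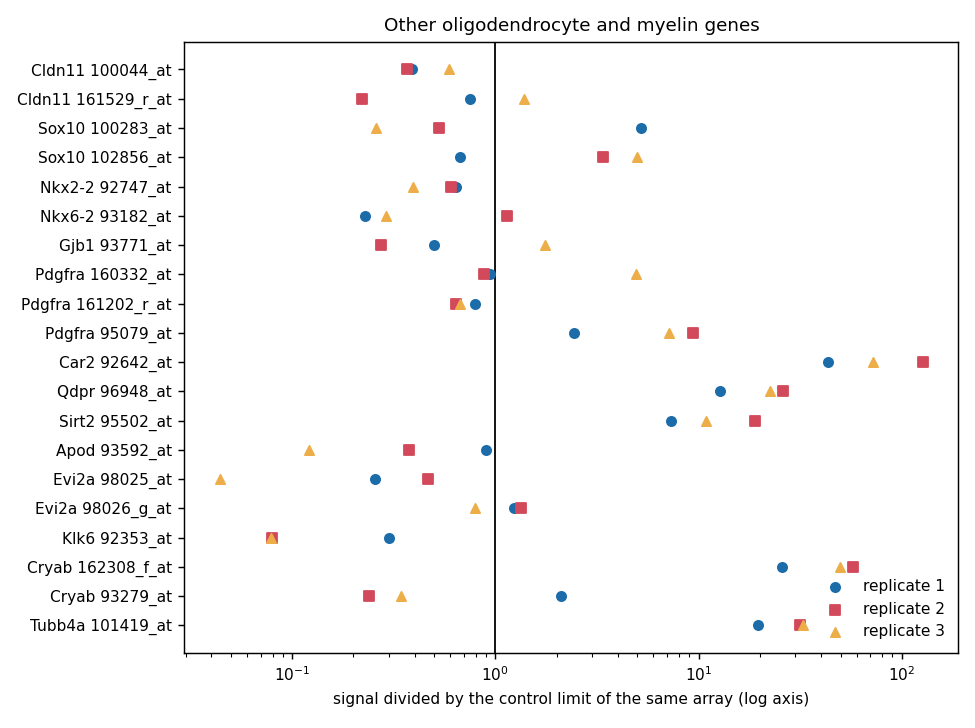
Signal divided by the control limit of the same array (log axis) for the 20 probe sets of other oligodendrocyte and myelin genes, 1 symbol per replicate, with the vertical line at the limit. Of the 10 probe sets for genes known in other cells too, 5 lie at 7.30 times the limit or more on every array. These are for Car2, Qdpr, Sirt2, Tubb4a and Cryab (162308_f_at). Of the rest, 2 lie above it on some arrays and 3 on none (Apod, Klk6 and 98025_at of Evi2a). The Sox10 probe sets straddle it, with replicate 1 highest at 100283_at and lowest at 102856_at.

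Peripheral myelin was examined in the same way, since ciliary and scleral nerves lie next to the retina. A list of 14 genes, which shares Mal with the 8 members and Sox10 and Gjb1 with the list above, had probe sets for 8 genes. Of its 10 probe sets, 4 were above the limit on all 3 arrays, for Pmp22, Mal, S100b and L1cam, beside 56.3% of all probe sets. Of these 4, 2 had a range of 2-fold or more, S100b with 2.03-fold and L1cam with 2.41-fold. The share among all probe sets above the limit on all 3 arrays was 30.2%. Prx, the gene of a scaffold protein of Schwann cell myelin, had no probe set of its own. Pmp22, a membrane protein of peripheral myelin that many other cells make, gave 946, 1039 and 1051 at one probe set and was below the limit on all arrays at the other. Egr2, the zinc finger factor of Schwann cell myelination and an activity-regulated gene in neurons, gave 453 and 117 in replicates 1 and 2 and 42.9, below the limit, in replicate 3, so that replicate 1 was at least 4.23-fold above replicate 3.

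The genes whose pattern over the 3 arrays lay nearest to that of 96311_at were sought among 6089 probe sets above the limit on all arrays, by the Euclidean distance of the log2 deviations. They were Pou6f1, Nvl, Ncam1, Igfbp6 and Mybbp1a, at distances of 0.09, 0.11, 0.22, 0.23 and 0.30. Pou6f1, at the smallest distance, gave 1032, 123 and 154 in replicates 1, 2 and 3. Of the 5 probe sets, 1 (for Igfbp6) had a plain suffix and 4 carried the suffix _r or _f, the latter for probe sets shared within a sequence family. All 5 were highest in replicate 1, which follows from choosing them for likeness to 96311_at. With 3 arrays such likeness is a description of these arrays alone.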

How the data were processed

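The deposited values are linear intensities of 12488 probe sets, with 1 column per array. The software and settings behind them are not given in the sources used here. Arrays were brought to equal 2% trimmed means over the 12422 non-control probe sets (factors 0.998, 1.00 and 1.00). For log2 values a floor at the 5th percentile of the array was set. Symbols came from the platform annotation, and those of all 13 member probe sets matched a RefSeq symbol by gene ID. No detection calls were used here. No test was made, since the samples form 1 group and replicate numbers only name the pools, and the number of arrays limits the precision. The labels do not say whether the pools share mice or an extraction, so the SD measures the spread between these samples, which may be technical.

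The members and lists were chosen with earlier results of these data known. Named genes were all members, the first 4 with a probe set in the oligodendrocyte and Schwann lists, every gene of the former above the limit on all arrays or with a range of 2-fold or more, and the 5 nearest in pattern to the widest-ranging member. Others that complete a count were named after their values were seen. Alternatives changed the limit, the scaling, the floor, the range threshold and the probe sets used, and left out each replicate. Counting and range steps were tested on simulated data. Python 3.11.15, numpy 2.4.6 and pandas 2.3.3 were used.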

Additional observations from a re-analysis of the deposited data

How the results depend on the processing

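With deposited values, equal medians, quantile normalization or yeast controls, the same 5 of 13 myelin probe sets were above the limit on all arrays. Beside them stood 56.3% of all probe sets at these scalings and 56.6% with yeast controls. The same 5 also passed with any replicate left out, where fewer arrays had to pass. There the share of all probe sets was 65.3%, 58.0% and 58.8% without replicates 1, 2 and 3. The limit itself mattered most. With the highest control it was passed by 3 probe sets of 2 genes (51.0% of all probe sets), with the 40th percentile of each array by 3 (50.3%), with the median control by 9 (82.2%), and with the antisense-strand probe sets of the spiked bacterial controls, a limit of 606, 490 and 453 chosen after seeing the data, by 0 probe sets and 0 genes, beside 24.0% of all probe sets. The count with a range of 2-fold or more was 2 of 5 in the report, beside 30.2% of all probe sets above the limit. It was 1 of 3 with the highest control and 1 of 4 with bacterial controls or with plain suffixes only. It was 0 with the 40th percentile or the antisense-strand controls and 6 of 9 with the median control. At a 1.5-fold threshold it was 4 of 5, while 54.3% of all probe sets above the limit ranged 1.58-fold or more. Leaving out 1 replicate gave a count of 1 to 2 of 5. Without replicate 1 Mbp 96311_at no longer ranged 2-fold, and without replicate 3 the Mag probe set did not. Shares of all probe sets with such a range at the other limits or without a replicate are not given here. The median control raised the other oligodendrocyte list from 6 to 15 probe sets and the Schwann list from 4 to 9, and the Schwann list fell to 2 with the 40th percentile and to 1 with antisense-strand controls. The mean signal of each of the 13 probe sets moved by less than its SD under the 3 other scalings. Without replicate 1 the mean fell from 413 to 124 for Mbp 96311_at, from 97.5 to 37.0 for Mobp 99046_at and from 20.5 to 5.35 for Mobp 100536_at. No paired analysis was possible because the samples form a single group. Signals near the limit, such as those of Mag and of Mbp 96311_at in replicates 2 and 3, set what can be read.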
